A study of Mus musculus with 3 samples.

Results

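Histones are the proteins that DNA is wound on, and the genes described here are those that the platform's naming table gives histone cluster or linker histone symbols. Members were all probe sets whose only gene symbol began with H1f, H2ac, H2bc, H3c, H4c or the older Hist forms. The rule found 30 probe sets of 29 genes among the 41345 probe sets of the array, of which 23521 carry 1 symbol. There were 8 probe sets for the linker histone H1, 7 for H2A, 8 for H2B, 7 for H4 and 0 for H3. The series holds 3 biological replicate cultures labelled purified MGE interneurons, all of 1 group, from wild-type CD-1 embryos at embryonic day 13. Many inhibitory interneurons of the forebrain are born in the medial ganglionic eminence (MGE), a swelling in the floor of the embryonic brain. All 3 cultures had been grown with FGF2 at 40 ng/ml, given AraC at 1 µM for 24 h from day 5, washed with 3 changes of medium and kept for 2 more days. No untreated or unpurified cultures belong to the series, so no gene is called higher or lower than in another condition, and the labels do not say how many embryos went into a culture.

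Most core histone genes are expressed in step with DNA replication, when new DNA has to be packed. Their mRNAs do not end in a poly(A) tail as other mRNAs do, but in a short stem-loop that the protein Slbp binds, and they are broken down when DNA synthesis stops. H2A, H2B, H3 and H4 form the core particle, and H1 binds the linker DNA between particles. AraC is a nucleoside analogue that is built into DNA and stops its synthesis, which kills dividing cells. Neurons no longer divide, and the histones they replace later come largely from variant genes that are transcribed outside S phase.

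The name replication-dependent histone genes holds for most of the set, but not for all of it. By their known roles, 7 of the 30 probe sets stand for histones that are not the ordinary S-phase ones. H1f6 and H1f7 are linker histones of the testis, H1f8 is the linker histone of the oocyte, H2ac1 and H2bc1 are testis forms of H2A and H2B, H1f10 is a linker histone made outside S phase, and H2bc21 is an H2B variant of neurons. The other 23 probe sets belong to genes counted here as the ordinary, replication-dependent kind. In the RefSeq gene table (GRCm38.p6), which held all 29 genes, 21 lie on chromosome 13, 5 on chromosome 3, 2 on chromosome 6 and 1 on chromosome 15.

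Promoters are shown for H1, H2B and H4 members because histone promoters carry short motifs that differ by histone type, and the set can be read against them. The sequences are RefSeq's for GRCm38.p6, each the 130 bases before the annotated start, on the gene's own strand. The first 4 are linker histone promoters, with the letters AAACACA of the AC box, an element known from H1 promoters, in capitals. H1f2 lies at chr13:23738677-23738806 (plus strand), H1f5 at chr13:21780626-21780755 (minus strand), H1f3 at chr13:23554902-23555031 (plus strand) and H1f6 at chr13:23695681-23695810 (plus strand).
H1f2: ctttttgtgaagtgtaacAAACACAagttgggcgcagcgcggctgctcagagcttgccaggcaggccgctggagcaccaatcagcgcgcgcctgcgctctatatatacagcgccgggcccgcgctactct
H1f5: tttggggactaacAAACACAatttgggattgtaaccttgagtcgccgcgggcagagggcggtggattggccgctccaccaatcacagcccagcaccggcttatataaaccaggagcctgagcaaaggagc
H1f3: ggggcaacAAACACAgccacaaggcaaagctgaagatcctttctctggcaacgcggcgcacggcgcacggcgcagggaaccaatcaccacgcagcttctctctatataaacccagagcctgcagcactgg
H1f6: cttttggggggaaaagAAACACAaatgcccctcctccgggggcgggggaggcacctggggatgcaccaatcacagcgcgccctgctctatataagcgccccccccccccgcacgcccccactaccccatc

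In these 4 genes the AC box began 112 (H1f2), 114 (H1f6), 117 (H1f5) and 122 (H1f3) bases before the start, each time on the gene's own strand. It was not found in the windows of H1f1, H1f7, H1f8 or H1f10. Thus 4 of 8 H1 promoters held it on either strand, against 7.18% of all 32851 promoters in the table. Over all member promoters it was in 7 of 27 (25.9%), the 3 others being those of H2ac1, H2bc1 and H2bc14.

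The next 4 promoters belong to H2B genes and show in capitals ATTTGCA, the core of the octamer motif that POU-domain factors bind. H2bc12 lies at chr13:22035691-22035820, H2bc3 at chr13:23746604-23746733, H2bc18 at chr3:96269570-96269699 and H2bc14 at chr13:21721914-21722043, all on the plus strand.
H2bc12: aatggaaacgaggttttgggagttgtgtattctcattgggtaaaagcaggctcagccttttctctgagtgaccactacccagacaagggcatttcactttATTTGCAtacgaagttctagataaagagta
H2bc3: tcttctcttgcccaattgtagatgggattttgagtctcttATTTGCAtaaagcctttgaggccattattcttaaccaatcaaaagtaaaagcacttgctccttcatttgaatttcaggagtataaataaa
H2bc18: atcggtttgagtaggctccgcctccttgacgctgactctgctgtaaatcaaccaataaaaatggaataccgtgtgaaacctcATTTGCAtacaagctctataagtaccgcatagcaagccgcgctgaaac
H2bc14: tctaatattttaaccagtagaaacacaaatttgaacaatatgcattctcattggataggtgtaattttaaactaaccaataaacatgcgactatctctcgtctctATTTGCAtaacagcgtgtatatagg

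The octamer core was in 5 of 7 H2B promoters (71.4%), in 3 of 6 H2A promoters, in 0 of 8 H1 and 0 of 6 H4 promoters, and in 4.02% of all promoters of the table. In H2bc14, H2bc12, H2bc18 and H2bc3 it began 25, 30, 48 and 90 bases before the start, and in the testis gene H2bc1 it began 164 bases before it. The 3 H2A genes with the motif, H2ac1, H2ac12 and H2ac20, each neighbour an H2B gene, and in them it read on the opposite strand. H2ac15 also neighbours an H2B gene, H2bc15, and its window held no match.

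The H4 promoter shown is that of H4c12, at chr13:21750554-21750683 on the minus strand, with the TATA box letters TATAAA in capitals.
H4c12: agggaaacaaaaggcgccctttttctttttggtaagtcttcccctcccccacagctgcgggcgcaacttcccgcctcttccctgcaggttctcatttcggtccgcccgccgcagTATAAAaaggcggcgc

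TATAAA, on either strand of the 300-base window, was in 16 of the 27 member promoters (59.3%) and in 13.6% of all promoters. Its place varied. On the gene's own strand it began 28 bases before the start in H1f5, 30 in H2ac21 and 16 in H4c12. In H2ac15 it began at base 22 after the start, and in H2bc22 212 bases before it on the opposite strand. CCAAT, the CCAAT box, was in 20 of 27 (74.1%), against 37.4% of all promoters. By type it was in 7 of 7 H2B, 6 of 6 H2A, 6 of 8 H1 and 1 of 6 H4 promoters. In these promoters 0 matches of a motif overlapped a match of another, and 4 promoters (H1f7, H1f10, H4c2 and H4c8) held none of the 4 motifs. A match is a description of the letters only. Promoters of 27 of the 29 genes were in the table.

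**Figure D1:**
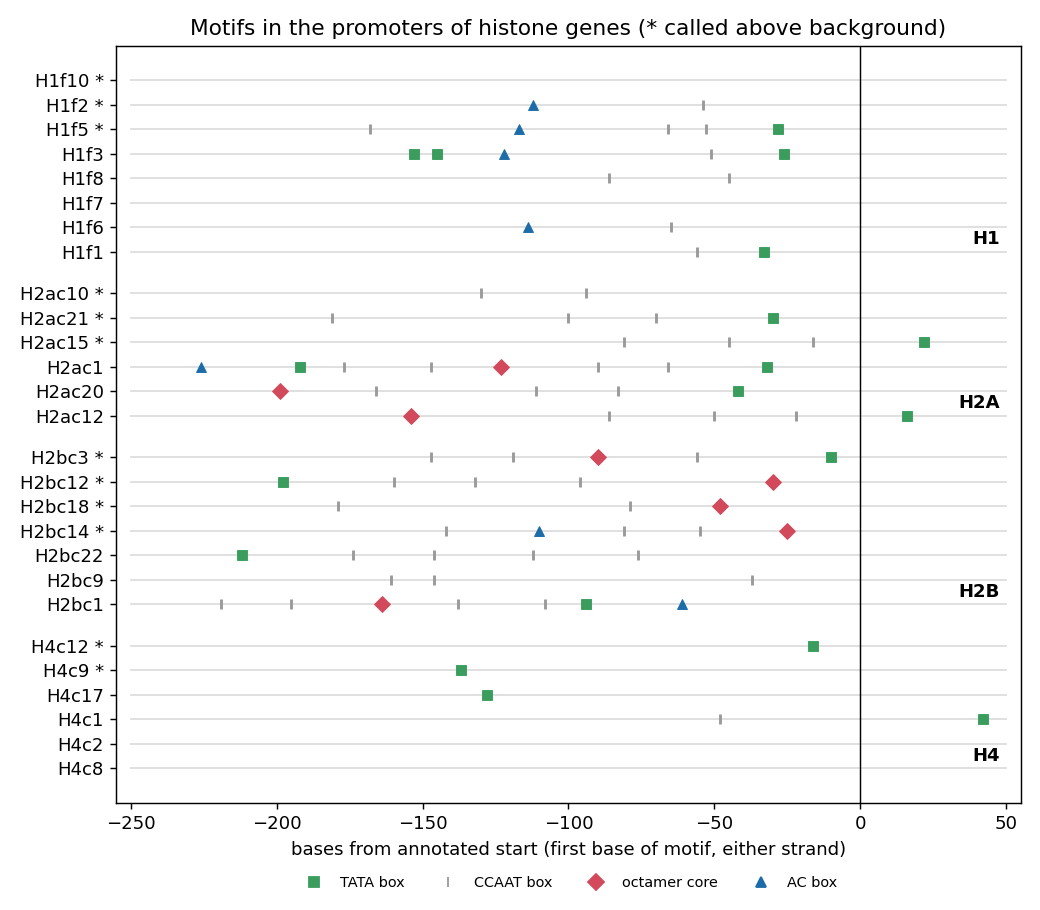
Positions of 4 motifs in the promoters of 27 histone genes. The x axis gives bases from the annotated start to the first base of a motif on either strand, each row is a gene, and a star marks genes called above background. The AC box stands between 112 and 122 bases before the start in 4 H1 genes, and the octamer core is in 5 of 7 H2B promoters.

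The signal of each probe set is a log2 value from the authors' RMA processing, a method that subtracts background, equalizes the distributions of the arrays and joins the probes of a set into 1 value. A probe set was called above background when the mean of the 3 cultures exceeded a background line of 6.26 log2 units in limma's 1-sided moderated test with an adjusted p under 0.05. That line is the 95th percentile of the means of 1440 probe sets for sensory receptors (odour, pheromone and bitter taste), genes little used outside the sense organs. Binding strength differs from one probe set to the next, so levels are compared between cultures and with the line, and not between genes. Many core histone genes of 1 type are nearly identical in their coding sequence. A probe set named for 1 of them can thus also take up RNA of its relatives. Its level is then uncertain as that of a single gene. How far this holds for the linker and testis histones was not measured. The labels call the cultures biological replicates and do not say whether they came from separate litters.

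Across the 3 cultures, 13 of the 30 histone probe sets (43.3%) were above background, against 62.4% of all 22081 probe sets tested. The 13 stand for 13 genes, namely H4c12, H4c9, H2ac10, H2ac15, H2ac21, H2bc3, H2bc12, H2bc21, H2bc18, H2bc14, H1f2, H1f5 and H1f10. The median of the 30 means was 6.25 log2 units, against 7.23 for all probe sets tested. Since binding strength differs between probe sets, these medians do not rank amounts of RNA. When the mean had to exceed the line by 1 log2 unit, 10 of 30 (33.3%) passed, against 46.0% of all probe sets. Among the 23 probe sets counted as ordinary S-phase genes 11 (47.8%) were called, and among the 7 others 2 (28.6%) were called, H1f10 and H2bc21. H2bc21 was placed with these others after its values were seen. By type, 3 of 8 H1, 3 of 7 H2A, 5 of 8 H2B and 2 of 7 H4 probe sets were called. A difference between the types was not tested.

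**Figure D2:**
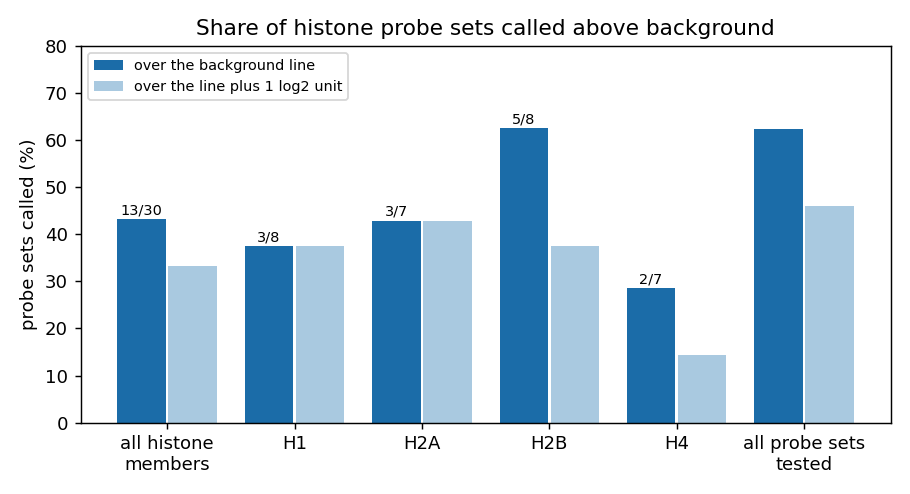
Percentage of probe sets called above background, for the 30 histone probe sets, for each histone type and for all probe sets tested. Dark bars use the background line and light bars the line plus 1 log2 unit. Of all 30 histone probe sets 43.3% were called, of H2B 62.5% and of H4 28.6%, against 62.4% of all probe sets tested.

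**Figure D3:**
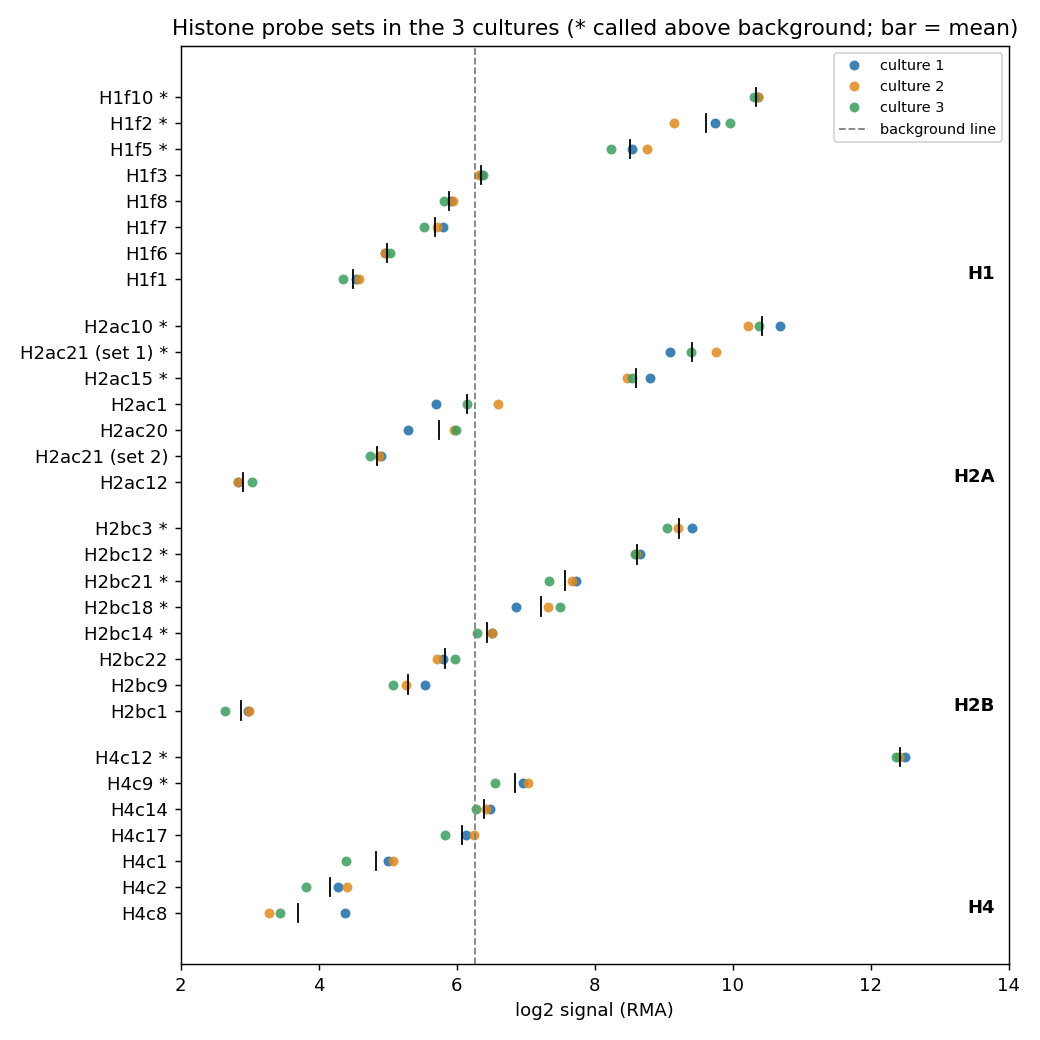
Log2 signal (x axis) of each of the 30 histone probe sets (rows) in cultures 1, 2 and 3 (points), with the mean as a black bar and the background line of 6.26 dashed. Stars mark the 13 probe sets called above background. H4c12 lies near 12.4 in each culture, while H2ac12 and H2bc1 lie near 3.

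Among linker histones, H1f2, a somatic linker histone of the chromosome 13 cluster, gave 9.74, 9.14 and 9.95 in cultures 1, 2 and 3. Its mean was 9.61 ± 0.42 (SD, n = 3), with an adjusted p of 4.32e-05 by limma. Culture 2 was the low one, and its range of 0.81 was the third largest of the 30 probe sets. H1f5, another somatic linker histone, gave 8.54, 8.76 and 8.24, with a mean of 8.51 ± 0.26 (SD, n = 3, limma adjusted p = 3.98e-05). Here culture 2 was the high one and culture 3 the low one, so the 2 called S-phase linker genes did not order the cultures alike. H1f10, which is made outside S phase, gave 10.36, 10.36 and 10.30, a mean of 10.34 ± 0.03 (SD, n = 3, limma adjusted p = 1.37e-06). Its range of 0.05 was the smallest of all 30 probe sets.

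The other 5 H1 probe sets were not called. H1f3, a somatic linker histone whose promoter carries the AC box, stood just over the line at 6.34, 6.32 and 6.38, and its mean of 6.35 ± 0.03 (SD, n = 3) did not pass the test (limma adjusted p = 0.122). All 3 cultures were over the line, and their mean exceeded it by 0.09. H1f1, another somatic linker histone of chromosome 13, gave 4.54, 4.58 and 4.36. The testis linker H1f6 gave 4.96, 4.97 and 5.04. The testis linker H1f7 gave 5.80, 5.72 and 5.52, and the oocyte linker H1f8 gave 5.92, 5.95 and 5.82. In each of these 4 genes all 3 cultures lay below the line.

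Among the H2A genes, H2ac10, a core histone of the chromosome 13 cluster, gave 10.69, 10.22 and 10.37. The mean was 10.43 ± 0.24 (SD, n = 3, limma adjusted p = 4.07e-06), and culture 1 was the high one. H2ac15, also of that cluster, gave 8.80, 8.47 and 8.54 (mean 8.60 ± 0.17, SD, n = 3, limma adjusted p = 1.22e-05), again with culture 1 on top. H2ac21, an H2A gene of the chromosome 3 cluster, has 2 probe sets that disagree. One gave 9.09, 9.76 and 9.40 (mean 9.41 ± 0.33, SD, n = 3, limma adjusted p = 2.56e-05), with culture 1 lowest. The other gave 4.91, 4.87 and 4.75 and was not called, so this gene is above background by 1 of its 2 probe sets.

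The remaining H2A probe sets had means below the line. H2ac1, the testis H2A, gave 5.69, 6.59 and 6.15, so culture 2 alone was over the line and its range of 0.90 was the second largest of the 30. H2ac20, the chromosome 3 neighbour of H2ac21 and H2bc21, gave 5.30, 5.96 and 5.98, with culture 1 low. H2ac12 gave 2.84, 2.84 and 3.04, far below the line in all 3 cultures.

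Of the H2B probe sets 5 of 8 (62.5%) were called, against 62.4% of all probe sets tested, and 3 of 8 (37.5%) with the margin, against 46.0% of all. H2bc3, on chromosome 13, gave 9.41, 9.20 and 9.05, a mean of 9.22 ± 0.18 (SD, n = 3, limma adjusted p = 6.15e-06). H2bc12 gave 8.65, 8.59 and 8.58, a mean of 8.61 ± 0.04 (SD, n = 3, limma adjusted p = 2.71e-06), with a range of 0.07 over the cultures. H2bc21, known in mouse olfactory sensory neurons as an H2B variant whose level depends on neuronal activity, gave 7.72, 7.66 and 7.33, a mean of 7.57 ± 0.21 (SD, n = 3, limma adjusted p = 0.000152). In all 3 of these genes culture 1 was highest and culture 3 lowest.

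H2bc18, of the chromosome 3 cluster, ordered the cultures the other way, with 6.85 in culture 1, 7.32 in culture 2 and 7.50 in culture 3. Its mean was 7.22 ± 0.33 (SD, n = 3, limma adjusted p = 0.00199). H2bc14 was the called probe set nearest to the line, at 6.52, 6.51 and 6.30 (mean 6.44 ± 0.13, SD, n = 3, limma adjusted p = 0.0469). Its call was lost without culture 1 (limma adjusted p = 0.106) and without culture 2 (adjusted p = 0.414), and it held without culture 3 (adjusted p = 0.0353). Over all alternatives tried, the adjusted p of H2bc14 ran from 0.000628 with the 90th percentile as the line to 1 with the 99th. H2bc22 gave 5.80, 5.72 and 5.98 and H2bc9 gave 5.54, 5.27 and 5.08. The testis gene H2bc1 gave 2.98, 2.99 and 2.64. In none of these 3 genes did a culture reach the line.

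Set beside the promoters shown above, the H2B genes called and not called fell out as follows. Of the 5 H2B promoters with the octamer core, 4 belonged to called genes (H2bc3, H2bc12, H2bc18 and H2bc14), and the exception was the testis gene H2bc1. Beside this, 62.5% of all H2B probe sets and 62.4% of all probe sets tested were called. With the margin of 1 log2 unit H2bc3 and H2bc12 stayed called, and H2bc18 and H2bc14 did not. The fifth called H2B gene, H2bc21, has no promoter shown here. In H2A it was otherwise, since the 3 promoters with the core (H2ac1, H2ac12 and H2ac20) belonged to genes not called, and 0 of the 3 called H2A genes held it. The promoters of H2bc22 and H2bc9, which were not called, had no match to the core in the window. Among H1 genes, the AC box stood before 2 called genes (H1f2 and H1f5) and before 2 that were not called (H1f3 and H1f6), while H1f10 was called and its window held none of the 4 motifs. These counts are small and carry no test.

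H2A and H2B genes often lie head to head and share a promoter. The starts of H2ac12 and H2bc12 face each other 178 bases apart on chromosome 13, and H2bc12 was called whereas H2ac12 was not. H2ac12 rests on 1 probe set with a mean of 2.90. A probe set that names it among 12 H2A genes had a mean of 12.24, and those naming it among 10 had means from 4.62 to 11.42. A difference between the 2 genes of this pair is therefore uncertain. The testis pair H2bc1 and H2ac1 face each other 281 bases apart, and neither was called. On chromosome 3, H2bc21 was called and its neighbour H2ac20 was not. A probe set that names H2ac20 with H2ac18 and H2ac19 had a mean of 12.01, so this difference is uncertain too.

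Among the H4 genes, which code for the most conserved of the core histones, H4c12 gave 12.49, 12.41 and 12.36, a mean of 12.42 ± 0.07 (SD, n = 3, limma adjusted p = 1.37e-06), 6.16 log2 units above the line. H4c9 gave 6.96, 7.03 and 6.55, a mean of 6.85 ± 0.26 (SD, n = 3, limma adjusted p = 0.00547). Without culture 2 the call of H4c9 was lost (adjusted p = 0.0768), which left H4c12 as the single H4 probe set called, and over all alternatives its adjusted p ran from 0.000617 to 1 under the same settings. H4c14, the H4 gene of the chromosome 3 cluster, gave 6.48, 6.42 and 6.28, over the line in each culture, but its mean of 6.39 ± 0.10 (SD, n = 3) did not pass (limma adjusted p = 0.0822).

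The 4 other H4 probe sets were below the line in every culture. H4c17 gave 6.13, 6.25 and 5.83, and H4c1 gave 5.01, 5.07 and 4.40. H4c2 gave 4.28, 4.41 and 3.82, with the same order of cultures. H4c8 gave 4.39, 3.28 and 3.44, and its range of 1.11 was the largest of the set, with culture 1 apart from the other two.

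Over the 30 histone probe sets together the cultures differed more than at the median probe set of the array, but not in each type. The median SD over the 3 cultures was 0.19 log2 units for the 30, against 0.13 for all probe sets tested. By type it was 0.26 for H4, 0.24 for H2A, 0.19 for H2B and 0.093 for H1, which lay below the value for all probe sets. Among the probe sets counted as ordinary S-phase genes it was 0.26 for H4, 0.21 for H2A, 0.16 for H2B and 0.19 for the 4 of H1. The low value of H1 thus held only with its germline and replication-independent genes included. A range above 0.5 log2 units was found in 9 of 30 (30.0%), against 13.9% of all, and a range above 1 in 1 of 30 (3.33%), against 1.28%. Among called probe sets the medians were 0.21 for the 13 histone ones and 0.12 for all. With culture 3 left out, the median SD of the 30 was 0.06, against 0.14 without culture 1 and 0.20 without culture 2. Over all probe sets tested the order was another, with 0.13 without culture 3, 0.10 without culture 1 and 0.085 without culture 2. By this median over the 30 histone probe sets cultures 1 and 2 were thus the closest pair, while over the array they were the farthest apart. The 30 include 17 probe sets not called, and the pattern did not hold for every probe set. In the called probe sets of H2ac10, H2ac15 and H2ac21 cultures 1 and 2 were the farthest apart.

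Culture 3 was the lowest of the 3 for 18 of 30 histone probe sets (60.0%), against 28.4% of all probe sets tested. It was lowest for 6 of 7 H4, 6 of 8 H2B, 5 of 8 H1 and 1 of 7 H2A probe sets. The median deviation from a probe set's own mean in cultures 1, 2 and 3 was 0.07, 0.04 and -0.08 for the 30, against -0.0059, 0.021 and -0.0047 for all probe sets. For H4 it was 0.11, 0.18 and -0.27, and for H2B 0.09, 0.03 and -0.16. Of the 7 H4 probe sets 5 were not called, and H4c12, far above the line, deviated by -0.06 in culture 3. Among the 13 called histone probe sets the culture 3 median was -0.06, against -0.017 for all called probe sets. Culture 3 was the lowest for 8 of these 13 (61.5%), against 31.2% of all called. H1 had medians of 0.03, 0.03 and -0.06 and H2A had -0.07, 0.03 and -0.02. After quantile normalization the median of the 30 in culture 3 was -0.10 and that of H4 was -0.27, and after median centring they were -0.10 and -0.28. Probe sets of 1 histone type can share RNA targets, so they cannot be taken as independent of each other. The 3 cultures allow no test of one against the rest.

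**Figure D4:**
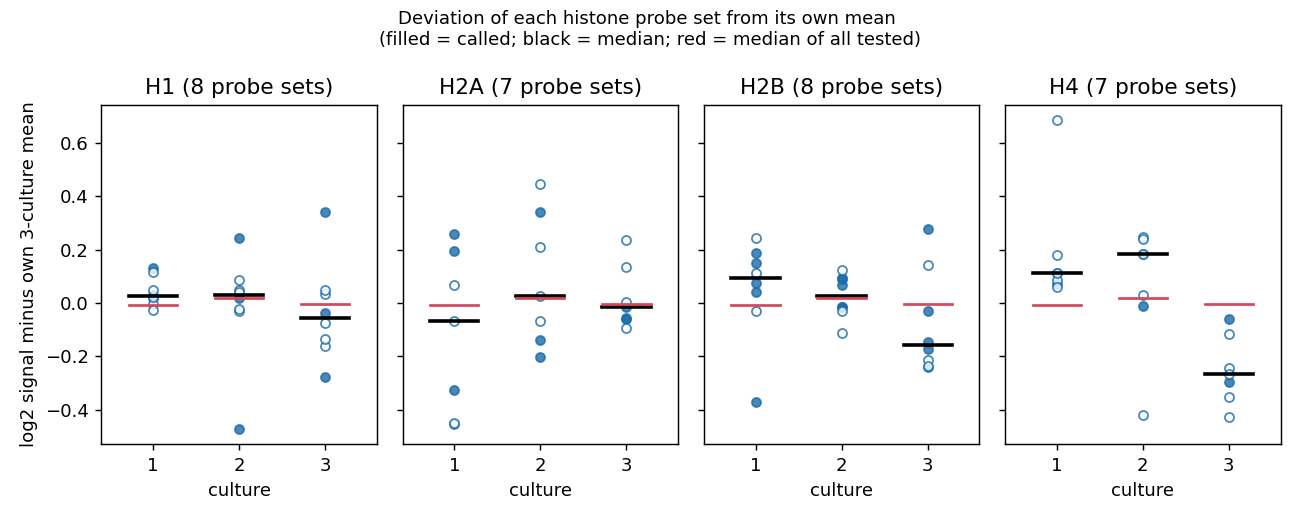
Log2 signal of each histone probe set minus its own mean over the 3 cultures (y axis), by culture (x axis) and histone type (panels). Filled points were called above background, black lines are medians of the type and red lines medians of all probe sets tested. In culture 3 the H4 median was -0.27, with 2 of 7 H4 probe sets called. The H2B median there was -0.16 and the H2A median -0.02.

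Culture 3 was also the lowest for most other genes of DNA replication measured. In a list of 34 S-phase genes, 32 were measured and 31 were above background, against 63.4% of all 20751 genes tested. Culture 3 was lowest for 23 of the 32 (71.9%), with a median deviation of -0.07 there, 0.04 in culture 1 and 0.05 in culture 2. The share was 28.4% over all probe sets tested and 31.2% over all those called. It was 70.0% (7 of 10) for the replication-independent variants given below, which include the members H1f10 and H1f8, both lowest in culture 3. It was 47.8% for the histone mRNA processing genes, 33.3% for the histone transcription genes and 30.8% for the histone chaperones. Mcm2, a subunit of the replicative helicase, gave 9.21, 9.27 and 9.05, and Pcna, the sliding clamp of DNA polymerases, gave 11.14, 10.93 and 10.95. Tyms, which makes thymidylate, gave 8.52, 8.73 and 8.64, and there culture 1 was lowest. Rrm2, a subunit of the enzyme that makes deoxynucleotides, gave 9.54, 9.62 and 9.50. Gins1, of the helicase complex, gave 6.30, 6.25 and 6.13 and was the 1 measured S-phase gene not called. Among 11 measured markers of dividing cells, all called, the median deviation was 0.17, -0.05 and -0.10 in cultures 1, 2 and 3, and culture 3 was lowest for 7. Mki67, a nuclear protein of cycling cells, gave 10.24, 9.86 and 10.01. Top2a, which untangles replicated DNA, gave 9.51, 9.29 and 9.23, and Cdk1, the kinase of mitotic entry, gave 10.54, 10.35 and 10.23. Culture 1 was highest for all 3. Neuronal and MGE markers, 12 of 12 called, had medians of -0.19, 0.13 and 0.06, and progenitor and glial markers, 13 of 13 called, had 0.24, -0.24 and -0.02. The part of these shifts in the histone values was not tested. Each array measured a whole culture, so fewer dividing cells and less histone RNA per cell cannot be told apart.

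Markers of the labelled cell type and markers of other cells were both above background. Gad1 and Gad2, the enzymes that make the transmitter GABA, averaged 10.23 ± 0.53 and 10.74 ± 0.26 (SD, n = 3), and the MGE transcription factors Lhx6 and Nkx2-1 averaged 10.21 ± 0.10 and 9.16 ± 0.16. Sox2 of progenitors averaged 11.00 ± 0.32, and Olig2 and Pdgfra of oligodendrocyte precursors 11.24 ± 0.13 and 11.45 ± 0.06. Which of the cells held histone RNA cannot be read from these arrays.

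Genes listed for the processing or decay of histone mRNA were above background with 1 exception. The list also holds general factors that act on other mRNAs. Of 23 genes for histone mRNA processing and decay, all measured, 22 were above background, against 63.4% of all genes tested, and the same 22 with the margin of 1 log2 unit, against 47.6%. Slbp, which binds the stem-loop, gave 9.14, 9.43 and 9.18, a mean of 9.25 ± 0.16 (SD, n = 3, limma adjusted p = 4.53e-06). Lsm10 and Lsm11, proteins of the U7 particle that guides cleavage of the histone transcript, averaged 8.42 ± 0.25 and 8.32 ± 0.27. Zfp473, a zinc finger protein of the same processing complex, gave 6.14, 5.97 and 6.07 and was the 1 not called. Npat and Casp8ap2, which stand in this list too, are given next.

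Of 15 measured genes that promote or restrain histone transcription or its cell cycle signals, 14 were called, against the same 63.4%. Npat, the coactivator that cyclin E and Cdk2 act on at histone genes, averaged 9.19 ± 0.12 (SD, n = 3), and Casp8ap2, its partner in the histone locus body, gave 9.01, 9.11 and 8.89. Ccne1, a cyclin E, averaged 8.68 ± 0.16, Cdk2 8.52 ± 0.22 and E2f1, a transcription factor of S-phase entry, 8.13 ± 0.08. E2f2 gave 6.20, 6.55 and 6.40 and was not called (limma adjusted p = 0.178).

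Histone chaperones, which carry histones to and from DNA, were called for 26 of 26 measured genes, against 63.4% of all genes, and for 25 with the margin, against 47.6% of all genes. Asf1b and Chaf1b, which hand new H3 and H4 to replicating DNA, averaged 8.86 ± 0.15 and 8.59 ± 0.09. Chaf1a, the large subunit of the same assembly factor, gave 7.11, 7.51 and 7.20, a mean of 7.27 ± 0.21, and was the 1 not called with the margin. Nasp, which binds free H3 and H4, averaged 8.46 ± 0.11. Hira and Daxx, which place the H3 variant used outside S phase, averaged 9.45 ± 0.04 and 8.35 ± 0.11 (SD, n = 3 each).

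Replication-independent variant histones were called for 7 of 10 measured genes (70.0%), against 63.4% of all genes tested. The called ones include H1f10, a member given above. H2ax, the H2A variant marked at DNA breaks, gave 10.66, 10.72 and 10.64 (mean 10.67 ± 0.04, SD, n = 3). H2az2, an H2A.Z gene, averaged 11.10 ± 0.24, Macroh2a1, a large H2A variant, 11.12 ± 0.08 and Cenpa, the H3 variant of the centromere, 8.78 ± 0.07. H2az1, the other H2A.Z gene, gave 5.71, 5.09 and 6.07 and was not called, nor were H2aj (5.99 ± 0.02) and the oocyte linker H1f8, a member given above. H1f0, H3f3a and H3f3b were not analysed here. Of 7 measured germline histones, which include 4 members of the set, 1 was called (14.3%, against the same 63.4%), H2ab2 (7.40 ± 0.14). The 2 others that are no members, Hils1 and H2bfm, averaged 5.45 ± 0.04 and 5.31 ± 0.02 and were not called.

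All H3 probe sets found by symbol carried several symbols. There were 38 probe sets that carry a histone symbol of the set among several symbols, and they are left out of all counts above. When they were included in the fit, 19 of 38 were called, against 54.2% of all 1814 probe sets with several symbols and 61.7% of all probe sets with 1 or several. In 3 cases a pair of probe sets held the same values in all 3 cultures, so there were 35 distinct ones, of which 16 were called. For H3, 4 of 12 were called. The highest of them, named for 8 H3 genes, gave 9.21, 9.18 and 9.09, while the lowest, named for the same 8 genes, gave 3.15, 3.15 and 2.87. Probe sets with the same naming thus lay both far above and far below the line.

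Some of the shared probe sets for H2A and H2B lay far above the line. One named for 12 H2A genes gave 12.19, 12.36 and 12.16, and another named for H2ac18, H2ac19 and H2ac20 gave 12.07, 12.14 and 11.81, although H2ac20 under its own name was not called. For H2B, a probe set with 12 symbols gave 12.76, 12.60 and 12.55, and one named for H2bc7, H2bc11, H2bc13 and H2bc15 gave 12.78, 12.33 and 12.63. The 5 shared H4 probe sets, of which 2 were called, had means from 4.17 to 6.87, and in all 5 culture 3 was the lowest. Culture 3 was also lowest for 9 of 12 shared H3 probe sets, for 5 of 7 distinct shared H2B probe sets and for 6 of 9 distinct shared H2A probe sets. For H2A this is unlike the 1 of 7 found among the probe sets with 1 symbol, and the difference was not tested.

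**Figure D5:**
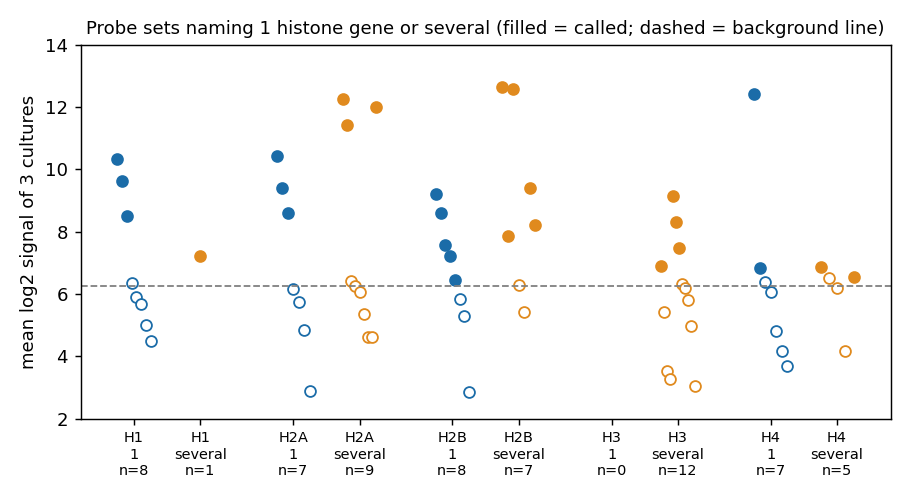
Mean log2 signal over the 3 cultures (y axis) of probe sets that name 1 histone gene (blue) or several (orange), by histone type. Filled points were called above background, the dashed line is the background line, and repeats with identical values are drawn once. H3 has 12 probe sets with several symbols and none with 1, and 4 of the 12 were called. The probe set naming both H1 and H2B genes is not drawn.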

How the data were processed

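RNA of 3 cultures (100 ng each) was measured on 1-colour arrays. The authors deposited log2 values, made with oligo and RMA according to the submitters' processing notes, in versions that the sources do not give. Probe sets were named from the platform's annotation table; 23521 carry 1 symbol, 1814 several and 16010 none. The values were used as deposited. limma 3.58.1 in R 4.3.3 fitted the mean of the 3 cultures, tested it 1-sided against the background line, and adjusted p-values by Benjamini-Hochberg over 22081 probe sets with 1 symbol outside the receptor families that set the line. The code was tested on simulated data. The number of arrays limits the precision, and p-values measure only the spread between these 3 cultures.

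The members, gene lists and motifs were chosen with earlier results of these data known. Every member may be named; of other lists, lead genes and genes not called are named, and H2az2, Macroh2a1 and H2ab2 were added after their values were seen. Older list symbols were matched through RefSeq synonyms. Alternatives changed the line, the test, the normalization, the filter, the naming and the cultures used.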

Additional observations from a re-analysis of the deposited data

How the results depend on the processing

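No paired analysis was possible because the series holds 1 group. In place of 13 histone probe sets, 10 were called with the 99th percentile as the line (48.3% of all probe sets) and 16 with the 90th percentile (71.9%). With other gene families, which are not receptors, as background 10 were called (43.3%), and with the margin 10 (46.0%). The 5 called H2B probe sets became 3 with the 99th percentile, 3 with other families and 3 with the margin. The 2 called H4 probe sets became 1 under each of those settings and without culture 2, and 4 with the 90th percentile. The settings that raised the line removed H2bc18, H2bc14 and H4c9, as a higher line must for means near it. The 90th percentile added H1f3, H4c14 and H4c17 (adjusted p = 0.0464 for H4c17, limma). H2bc14 was also lost after quantile normalization (adjusted p = 0.0593) and median centring (0.0552), where the cause was not tested. Leaving out 1 culture at a time gave 11 to 13 called members, 4 to 5 for H2B and 1 to 2 for H4. Over single members, 367 results kept their side of the threshold, 14 lost it and 5 gained it. The settings with several-symbol probe sets in the fit were chosen after seeing the data and left 13 members called.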
